A study of Mus musculus with 6 samples.

Results

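Guca2a, Guca2b and Scnn1a encode a pair of small gut and kidney hormones and a subunit of the sodium channel of absorbing epithelia. These 3 genes were taken from the 16590 genes with a named probe by their symbol in the array's annotation, and each had 1 probe. They were selected on their fall in these arrays, above all their log2 changes with KD3010 against DMSO, so for these genes the comparisons that use the KD3010 arrays are given as a description, with errors and intervals but without a test.

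Guanylin, the product of Guca2a, and uroguanylin, the product of Guca2b, are secreted by epithelial cells of the intestine. Both bind the membrane guanylate cyclase Gucy2c, which makes cGMP and shifts salt and water transport. Scnn1a encodes the alpha subunit of the epithelial sodium channel ENaC, which assembles with beta and gamma subunits and lets sodium enter cells of the kidney collecting duct, lung and distal colon. Hepatocytes are not the usual site in which any of the 3 is studied.

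Expression had been profiled on 6 Illumina bead arrays of primary hepatocytes, the parenchymal cells of the liver kept in culture. All came from male mice aged 10 weeks, wildtype on a c57Bl6/J background. One pair of arrays was from cells given KD3010, another from cells given GW1516, both agonists of the nuclear receptor PPAR-delta, and the last from cells given the solvent DMSO. The labels call the arrays of a pair technical replicates, so errors and p-values below cover array-to-array spread, which may be purely technical. No dose or exposure time was stated in the labels, and whether the agonists were matched is unknown here.

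Between 10239 and 10805 of 25697 probes were detected per array, and arrays of one group correlated between 0.989 and 0.991 over 8058 tested features. A probe counts as detected where its detection p, set against the negative control beads of the array, is below 0.05. Of 11 hepatocyte markers with a probe, 8 were detected on all 6 arrays, while Alb, Tat and Fgb were detected on 0. The intestinal epithelium list, which includes Cdx2, Vil1 and Fabp2, had 8 markers with a probe, and 8 of 8 were detected on no array. Of 8 cholangiocyte (bile duct) markers with a probe, 4 were detected on all 6 arrays (Sox9, Aqp1, Slc4a2 and Cdh1), while the defining keratins Krt19 and Krt7 and the chloride channel Cftr were detected on 0.

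Guca2a and Guca2b lie next to each other on mouse chromosome 4. The stretches around their transcription starts are shown because these neighbouring genes were both lower with KD3010. Each runs from 250 bases before the start to 50 after it, 5′ to 3′ on the gene's own strand, from RefSeq on GRCm38.p6, at chr4:119637482-119637781 (plus strand) for Guca2a and chr4:119658896-119659195 (minus strand) for Guca2b. Capitals mark matches to the motifs searched.
Guca2a: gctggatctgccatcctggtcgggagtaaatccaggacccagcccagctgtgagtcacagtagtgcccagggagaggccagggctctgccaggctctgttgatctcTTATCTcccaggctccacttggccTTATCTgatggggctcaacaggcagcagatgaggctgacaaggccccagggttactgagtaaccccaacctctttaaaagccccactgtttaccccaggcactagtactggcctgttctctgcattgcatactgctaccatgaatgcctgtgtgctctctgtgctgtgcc
Guca2b: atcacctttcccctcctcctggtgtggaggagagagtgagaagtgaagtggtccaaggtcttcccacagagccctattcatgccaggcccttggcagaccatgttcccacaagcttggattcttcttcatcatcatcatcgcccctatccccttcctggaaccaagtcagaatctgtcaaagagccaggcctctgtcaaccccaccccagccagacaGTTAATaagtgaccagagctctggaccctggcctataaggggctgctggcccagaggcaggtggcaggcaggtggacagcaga
On both strands the search covered AGGTCA, the half-site of many nuclear receptors, its direct repeat with 1 base of any kind between the copies, which is bound by PPAR with its partner RXR, AGATAA, a site of GATA factors, and GTTAAT, a half-site of the hepatic and intestinal factor HNF1. The repeat contains AGGTCA on the same strand, and the motifs were chosen after the sequences had been seen. Guca2a held AGATAA on the antisense strand, read as TTATCT, beginning 144 and 120 bases before the start, and Guca2b held GTTAAT beginning 33 bases before it. Neither window held AGGTCA or its repeat. Of 32851 promoter windows of 300 bases, 16.3% held AGGTCA, 0.0396% the repeat, 11.2% AGATAA and 7.1% GTTAAT, and a match is a string of letters and not a shown binding site.

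All 3 genes were detected on all 6 arrays, each with a detection p of 0. They were dimmest on the KD3010 arrays, and GW1516 lay between KD3010 and DMSO in the group means.

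Guca2a had unnormalized bead intensities of 764.9 and 836.1 with KD3010, 1464.4 and 1971.1 with GW1516, and 2230.7 and 1884.6 with DMSO. Both KD3010 arrays were far below the other 4, while the GW1516 and DMSO arrays overlapped. After background correction and quantile normalization its log2 level was 9.25 and 9.28 with KD3010, 10.5 and 10.71 with GW1516, and 10.82 and 10.61 with DMSO. The probe ranked above 51.9% and 52.3% of tested features on the KD3010 arrays, 70.5% and 73.4% on the GW1516 arrays, and 74.7% and 72.1% on the DMSO arrays.

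Guca2b had intensities of 666.7 and 586.8 with KD3010, 787.7 and 922.3 with GW1516, and 1245 and 1116.7 with DMSO. The pairs did not overlap, and the order ran from KD3010 over GW1516 to DMSO. Its log2 level was 8.97 and 8.52 with KD3010, 9.36 and 9.41 with GW1516, and 9.83 and 9.74 with DMSO. Its KD3010 arrays were the furthest apart of any pair for these genes, with an SD of 0.32 on the log2 scale.

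Scnn1a had intensities of 504.8 and 507.8 with KD3010, 678.3 and 771.7 with GW1516, and 1016.6 and 913.4 with DMSO. Here too the pairs were apart and in the same order. Its log2 level was 8.32 and 8.19 with KD3010, 9.05 and 9.05 with GW1516, and 9.45 and 9.36 with DMSO.

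**Figure D1:**
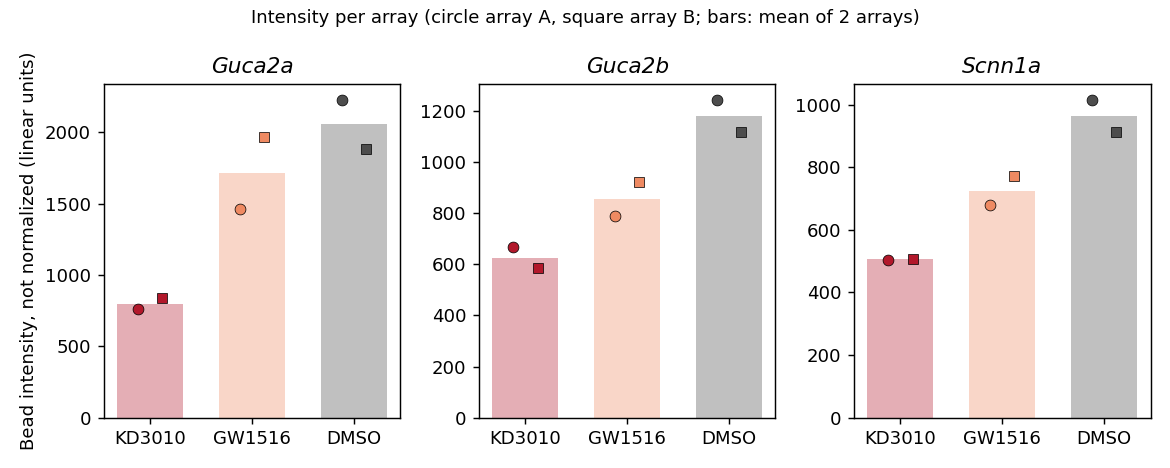
Unnormalized bead intensity (linear units) of Guca2a, Guca2b and Scnn1a on each array, by group. Points are arrays (circle A, square B) and bars are means of 2 arrays. The KD3010 arrays are lowest in each panel, at 764.9 and 836.1 for Guca2a, and only in Guca2a do the GW1516 and DMSO points overlap.

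The comparison of KD3010 with DMSO was the one that brought these genes forward. Guca2a averaged 9.27 ± 0.018 with KD3010 and 10.72 ± 0.15 with DMSO on the log2 scale (SD, n = 2 arrays each), a log2 change of -1.45 ± 0.17 (SE), or 2.74-fold lower. Scnn1a averaged 8.25 ± 0.094 with KD3010 and 9.41 ± 0.063 with DMSO, a change of -1.15 ± 0.16, or 2.22-fold lower. Guca2b averaged 8.74 ± 0.32 with KD3010 and 9.78 ± 0.064 with DMSO, a change of -1.04 ± 0.19, or 2.05-fold lower.

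Among the 8058 features ordered by their log2 change, Guca2a had the largest fall, Scnn1a ranked 5 and Guca2b ranked 9. As background, 209 features (2.59%) were at least 1.5-fold lower, these 3 genes among them. Limma called 2 features (0.0248%) lower, where called means an adjusted p below 0.05 with at least a 1.5-fold change. Those 2 were Guca2a and Scnn1a themselves, so that share is no background apart from the chosen genes, and their call is not read as a test. Both KD3010 arrays lay below both DMSO arrays in 3 of these 3 genes and in 22.6% of all features. Since the genes were chosen on this comparison, nothing is read from their place in it.

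The size of the difference depended on how the intensities were processed. The ratio of mean unnormalized intensities was 2.57-fold for Guca2a, 1.88-fold for Guca2b and 1.91-fold for Scnn1a, all lower with KD3010. The authors' normalized values had array medians of 257.8 to 257.9, within the 254.7 to 272.4 of the unnormalized intensities. In these values Guca2a averaged 826.5 ± 4.1 with KD3010 and 1887 ± 158 with DMSO, 2.28-fold lower. In the same values Guca2b averaged 652 ± 93 with KD3010 and 1096 ± 33.1 with DMSO, 1.68-fold lower, and Scnn1a averaged 523.1 ± 20.8 with KD3010 and 893.8 ± 33.2 with DMSO, 1.71-fold lower.

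With GW1516 the genes were closer to DMSO. These tests share the DMSO arrays with the comparison on which the genes were picked, so they are not independent of that choice. Guca2a averaged 10.61 ± 0.15 with GW1516 and 10.72 ± 0.15 with DMSO, a log2 change of -0.11 ± 0.17 with a 95% interval from -0.49 to 0.26 (limma adjusted p = 0.876). Guca2b averaged 9.38 ± 0.032 with GW1516 and 9.78 ± 0.064 with DMSO, a change of -0.4 ± 0.19 with an interval from -0.81 to 0.02 (limma adjusted p = 0.544). Scnn1a averaged 9.05 with GW1516 and 9.41 ± 0.063 with DMSO, a change of -0.35 ± 0.16 with an interval from -0.71 to -0.002 (limma adjusted p = 0.524).

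None of the 3 passed with GW1516, where limma called 0 of 8058 features lower (0%) and 389 (4.83%) were lower at an unadjusted p below 0.05, Scnn1a among them (unadjusted p = 0.0491). None was at least 1.5-fold lower, against 1.87% of features. The intervals of Guca2b and Scnn1a leave room for a fall of up to 0.81 and 0.71 on the log2 scale. Both GW1516 arrays lay below both DMSO arrays for Guca2b and Scnn1a, against 19.8% of all features. The order KD3010 below GW1516 below DMSO without overlap held in 2 of the 3 genes and in 2.17% of features. The genes were picked on KD3010 below DMSO, so that share is no fair background. Both KD3010 arrays lay below both DMSO arrays in 1824 features, and 175 of these had the full order.

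**Figure D2:**
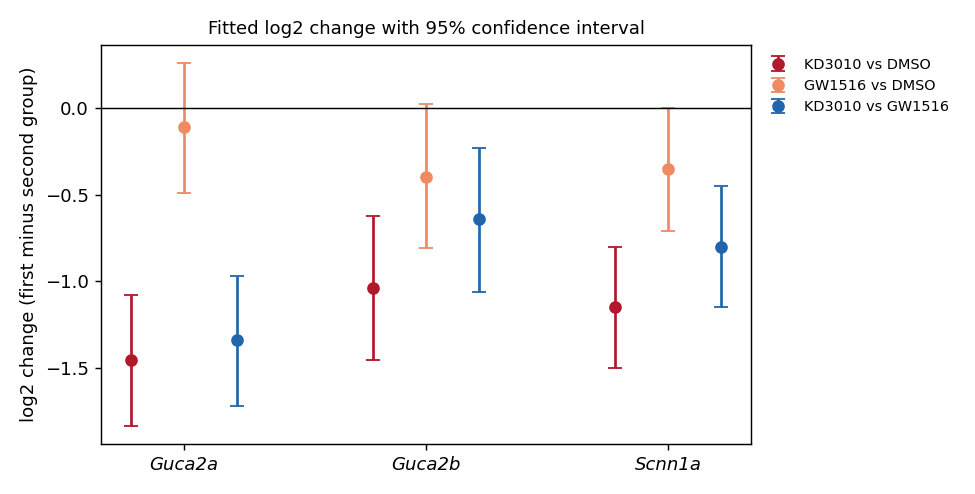
Fitted log2 change of each gene in the 3 comparisons (points) with its 95% confidence interval (bars). The change with KD3010 against DMSO runs from -1.45 for Guca2a to -1.04 for Guca2b, and with GW1516 against DMSO from -0.4 for Guca2b to -0.11 for Guca2a.

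Set directly against GW1516, KD3010 gave lower levels of all 3 genes. For Guca2a the log2 difference was -1.34 ± 0.17 (95% interval -1.72 to -0.97), or 2.53-fold lower with KD3010. It was -0.8 ± 0.16 (-1.15 to -0.45) for Scnn1a and -0.64 ± 0.19 (-1.06 to -0.23) for Guca2b. Both KD3010 arrays lay below both GW1516 arrays in 3 of the 3 genes and in 24.3% of features. At least 1.5-fold lower were 3 of the 3, against 2.76% of features. The genes were chosen on their low KD3010 values, so nothing is read from these shares. The count at 1.5-fold rests on the background correction. With quantile normalization but no background correction Guca2a was 2.13-fold, Guca2b 1.37-fold and Scnn1a 1.43-fold lower with KD3010, and 1 of the 3 reached 1.5-fold. The ratios of mean unnormalized intensities were 2.15-fold for Guca2a, 1.36-fold for Guca2b and 1.43-fold for Scnn1a. Limma called 0 of 8058 features (0%) between the agonists, and 1122 (13.9%) had an unadjusted p below 0.05. Without KD3010 array B the difference of Guca2b was -0.42, and without array A it was -0.86.

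The receptor and the channel's partner subunits were at background. Gucy2c, the receptor of both peptides, had intensities from 235.5 to 245.7 with KD3010, 238.6 to 254.2 with GW1516 and 242.2 to 242.6 with DMSO, and was not detected on any array. Scnn1b, the beta subunit, had intensities from 212.7 to 216.6 with KD3010, 180.7 to 208.1 with GW1516 and 186.5 to 214.1 with DMSO. Scnn1g, the gamma subunit, had intensities from 203.4 to 235.2 with KD3010, 241.8 to 263.2 with GW1516 and 205 to 233.4 with DMSO. The lowest intensity that counted as detected was 280.7 to 302 per array, so both subunits stayed under it. The alpha subunit was therefore measured without a detectable signal of either partner at the sensitivity of their single probes.

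Of the list of 7 channel relatives, the beta and gamma subunits and the acid-sensing channels Asic1 to Asic5, 7 had a probe and 0 passed the filter on dim probes. Of 21 genes of cGMP signalling and natriuretic peptides, 18 had a probe and 2 were tested. Npr2, the receptor of C-type natriuretic peptide, differed from DMSO by 0.19 ± 0.17 with KD3010 and by 0.06 ± 0.17 with GW1516 on the log2 scale. Gucy1a1, a subunit of the soluble guanylate cyclase, had 3 probes. Only 1 passed the filter, through DMSO, where its intensity was highest, so its change is not read as a test. That probe was detected on both DMSO arrays, 1 GW1516 array and 0 KD3010 arrays, and differed from DMSO by -0.27 ± 0.28 with GW1516. The other probes were detected on no array, and 1 of them had 274.7 to 289.1 with KD3010 and 256.4 to 265.1 with DMSO. No fold is given for Gucy1a1 with KD3010, since the bound that its signal on those arrays allows is under 1.

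Of 25 regulators of the sodium channel, 16 were tested and 0 were called in either comparison with DMSO. Among all features 0.124% were called with KD3010 and 0.0869% with GW1516. Their median log2 change was -0.09 with KD3010 and -0.01 with GW1516, against 0 for all features in both. Sgk1, the kinase through which aldosterone and glucocorticoids raise channel activity, differed by -0.06 ± 0.18 with KD3010 and by 0.37 ± 0.18 with GW1516. Nedd4l, the ubiquitin ligase that removes the channel from the membrane, differed by 0.08 ± 0.17 with KD3010 and by -0.21 ± 0.17 with GW1516. Tsc22d3, a glucocorticoid-induced protein that counters this ligase, differed by 0.03 ± 0.18 with KD3010 and by -0.04 ± 0.18 with GW1516. Hsd11b1, which regenerates active glucocorticoid, differed by -0.05 ± 0.16 with KD3010 and by -0.1 ± 0.16 with GW1516. The glucocorticoid receptor gene Nr3c1 and Hsd11b2, which inactivates glucocorticoid, were each covered by 1 probe that was detected on no array.

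Stk39, a kinase of sodium and chloride cotransporters, had the largest fitted fall of the regulators, -1.17 ± 0.34 with KD3010 (limma adjusted p = 0.251) and -0.69 ± 0.34 with GW1516 (limma adjusted p = 0.558). Its intensity was 264.3 to 283.2 with KD3010, 264.2 to 346.4 with GW1516 and 352.5 to 398.4 with DMSO, close to background throughout. It passed the filter on dim probes only through the DMSO arrays, where it was highest, so its p-values are not read as tests. Since neither KD3010 array detected it, only a bound holds there, at least 1.82-fold lower than with DMSO on the background-corrected scale. Oxsr1, a kinase related to it, had the largest fitted rise with KD3010, 0.33 ± 0.23, and Wnk1, which activates both, differed by -0.19 ± 0.17 with KD3010 and by 0.37 ± 0.17 with GW1516.

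Proteases that cleave the channel, and their inhibitors, had 9 tested genes of 16, with a median log2 change of 0.02 with KD3010 and 0.05 with GW1516. Of these 0 were called, beside 0.124% of all features with KD3010 and 0.0869% with GW1516. Prss8 (prostasin), which cuts the channel at the cell surface, differed by 0.03 ± 0.18 with KD3010 and by 0.01 ± 0.18 with GW1516. Furin, which cuts it on its way to the surface, differed by 0.02 ± 0.21 with KD3010 and by 0.1 ± 0.21 with GW1516. Spint2, an inhibitor of such proteases, had the lowest value of this list, -0.26 ± 0.22 with KD3010 and -0.28 ± 0.22 with GW1516, and Hgfac the highest, 0.19 ± 0.16 with KD3010 and 0.26 ± 0.16 with GW1516. The protease gene St14 and the inhibitor gene Spint1 did not pass the filter.

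Of 23 genes of sodium and water transport, 11 were tested, with a median of -0.05 with KD3010 and 0.18 with GW1516. Here too 0 were called, beside 0.124% of all features with KD3010 and 0.0869% with GW1516. Atp1b1, a subunit of the sodium pump, differed by 0.38 ± 0.18 with KD3010 and by 0.26 ± 0.18 with GW1516. Slc12a7, a potassium and chloride cotransporter, had the highest value with KD3010, 0.56 ± 0.17 (limma adjusted p = 0.269). Slc12a2, which carries sodium, potassium and chloride into cells, had the lowest, -0.34 ± 0.17. With GW1516 the lowest was Aqp8, a water channel of hepatocytes, at -0.24 ± 0.16.

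Over the 5 lists, 38 of 92 genes were tested, and limma called 0 of 38 in each of the 3 comparisons, against 0.124% of all features for KD3010 and 0.0869% for GW1516 against DMSO. At an unadjusted p below 0.05, KD3010 against DMSO gave 1 higher gene (Slc12a7) and 2 lower ones (Stk39 and Rictor), against 5.44% higher and 6.76% lower among all features. Stk39 passed the filter on dim probes only through DMSO, where it was highest, so its place in this count is not read as a test. GW1516 against DMSO gave 0 of 38, against 9.52% of all features. KD3010 against GW1516 gave 4 lower genes, namely Sgk1, Wnk1, Rictor and Slc12a2, against 7.78% of all features.

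**Figure D3:**
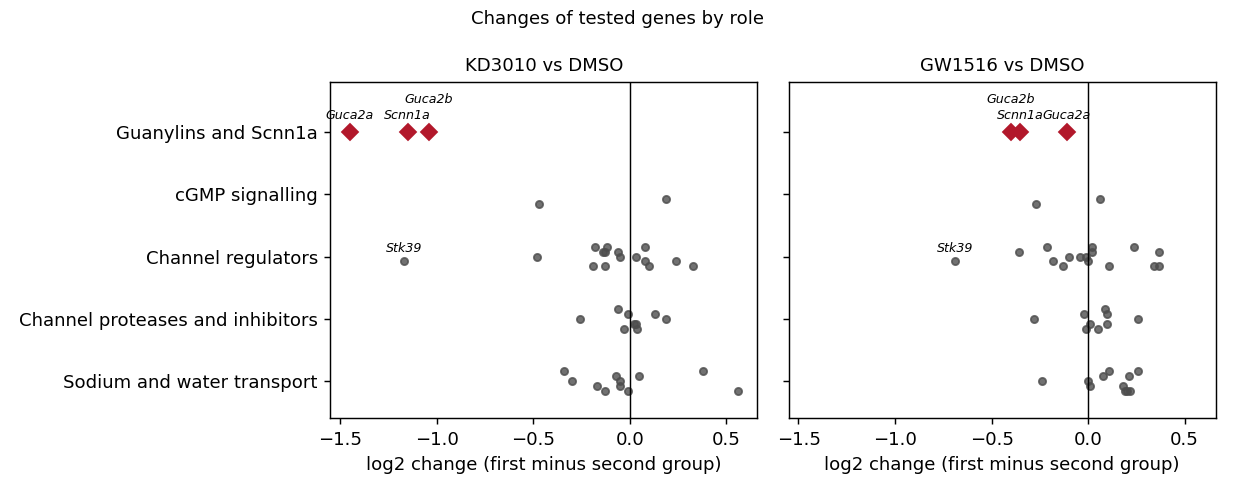
Log2 change of the tested genes by role, with KD3010 (left) and GW1516 (right) against DMSO. Red diamonds are Guca2a, Guca2b and Scnn1a and grey points are tested genes of the lists, of which Stk39 is labelled. Stk39 and Gucy1a1 were detected on 0 KD3010 arrays, so their points on the left are fitted values at background. The list genes other than Stk39 lie between -0.48 and 0.56 with KD3010, while the 3 diamonds, chosen on their fall with KD3010, lie between -1.45 and -1.04.

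In the RefSeq annotation, the nearest protein-coding genes on either side of the guanylin pair were Foxj3, a transcription factor gene beside Guca2a, and Hivep3 beside Guca2b. Foxj3 was detected on 6 arrays and differed from DMSO by -0.06 ± 0.19 with KD3010 and by 0.16 ± 0.19 with GW1516. Hivep3 was detected on 0. Frg2f1, the next gene beyond Foxj3, differed by -0.6 ± 0.2 with KD3010 (limma adjusted p = 0.292) and by -0.44 ± 0.2 with GW1516 (limma adjusted p = 0.541).

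The profiles of the 3 genes over the 6 arrays were alike, as their common drop with KD3010 makes them. Pearson's r was 0.904 between Guca2a and Guca2b, 0.964 between Guca2a and Scnn1a, and 0.974 between Scnn1a and Guca2b. Ordered by r to Guca2a, its paralog Guca2b ranked 172 of 7456 named genes and Scnn1a ranked 29. These coefficients rest on 6 arrays in 3 groups, share the arrays and their normalization, and describe a shape without its size.

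The 5 named genes most like Guca2a were Smg1 (r = 0.994), a kinase of RNA surveillance, Tfrc (0.993), the transferrin receptor, Ankrd1 (0.991), a nuclear cofactor, Naa60 (0.99), an acetyltransferase, and Il13ra1 (0.99), a receptor chain for interleukins. Tfrc had log2 levels of 9.37 and 9.35 with KD3010, 10.03 and 10.06 with GW1516, and 10.05 and 10 with DMSO, a change of -0.67 with KD3010 and 0.02 with GW1516. Ankrd1 had log2 levels of 8.66 and 8.8 with KD3010, 9.4 and 9.49 with GW1516, and 9.48 and 9.46 with DMSO, a change of -0.74 with KD3010 and -0.03 with GW1516. Guca2a was chosen on its fall with KD3010, the largest of all features, so a smaller drop of these genes was fixed in advance. Of the 5, none was called with KD3010, beside 0.124% of all features.

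The 5 most like Scnn1a were Rpl23 (r = 0.994), a ribosomal protein gene, Slc39a13 (0.99), a zinc transporter, Rabep1 (0.99), a factor of endosome fusion, Kat2b (0.987), a histone acetyltransferase, and Il13ra1 (0.981), which stood in both sets. Rabep1 had log2 levels of 6.86 and 6.81 with KD3010, 7.39 and 7.3 with GW1516, and 7.65 and 7.47 with DMSO. Its change was -0.73 with KD3010 and -0.22 with GW1516. Rpl23, with the highest r, changed by -0.27 with KD3010, against -1.15 for Scnn1a, since r takes no account of size.

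**Figure D4:**
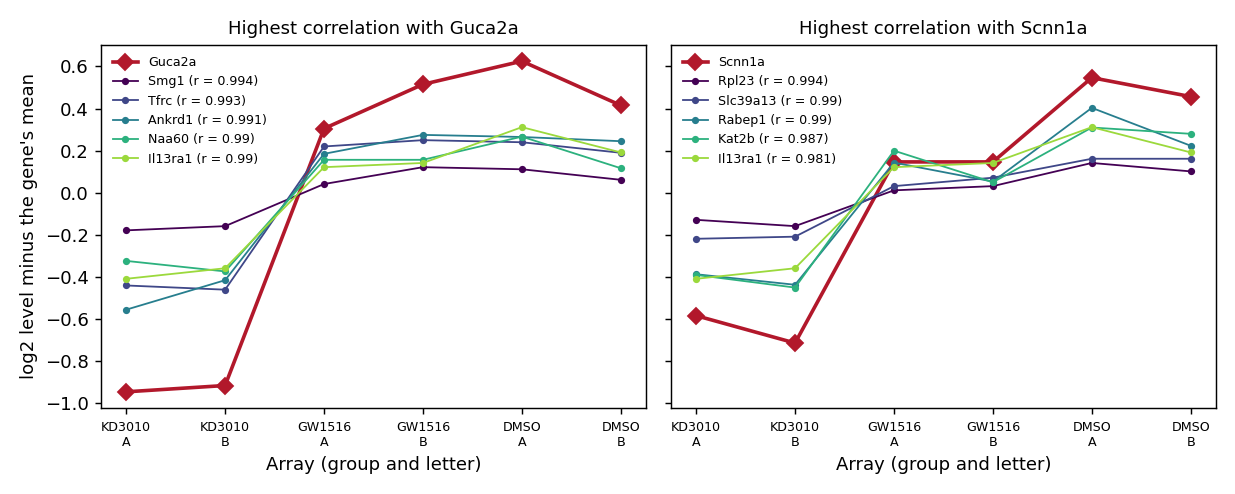
Log2 level minus the gene's own mean over the 6 arrays, for Guca2a (left) and Scnn1a (right) in red and for the 5 named genes with the highest Pearson r to each. Lines join the arrays of one gene for reading and have no order in time. The KD3010 arrays are lowest for all genes shown. The red lines, of genes chosen on a large fall with KD3010, span the widest range in both panels.

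Markers of other liver cells went different ways between the groups. Limma called 0 of their tested genes against DMSO, beside 0.124% of all features with KD3010 and 0.0869% with GW1516. The summed background-corrected level of the cholangiocyte markers was 6466 to 6633 with KD3010, 6487 to 6547 with GW1516 and 6125 to 6306 with DMSO. It was thus higher with either agonist than with DMSO. Among its 5 tested genes Sox9 was lowest with KD3010, at a log2 change of -0.48 (limma adjusted p = 0.38), and the list had a median of -0.04. Aqp1 was at -0.13 and Cdh1 at -0.04, while Cldn7 and Slc4a2 were higher, at 0.11 and 0.4. The sum of the endothelial list was 1307 to 1387 with KD3010, 1469 to 1574 with GW1516 and 1433 to 1661 with DMSO, so its KD3010 arrays lay below the other 4. Its 6 tested genes had a median log2 change of -0.11 with KD3010 and 0.12 with GW1516. The lowest with KD3010 was Lyve1, a hyaluronan receptor of these cells, at -0.55 (limma adjusted p = 0.292), which was also at -0.53 with GW1516. With KD3010, Pecam1, Clec4g and Cdh5 were at -0.48, -0.14 and -0.09, while Oit3 and Tek were higher, at 0.14 and 0.18. The hepatocyte sum was 255600 to 272200 with KD3010, 271400 to 273000 with GW1516 and 256700 to 259200 with DMSO, and so did not separate KD3010 from DMSO. The stellate cell sum was 4777 to 5321 with KD3010, 3826 to 4731 with GW1516 and 4352 to 4637 with DMSO, so its KD3010 arrays lay above the other 4. Its 4 tested genes had a median log2 change of 0.1 with KD3010 and 0.05 with GW1516. Vim, which encodes the filament protein vimentin and is also made by other cells, differed most, by 0.8 with KD3010 (limma adjusted p = 0.251) and by -0.55 with GW1516. Dcn, which encodes the matrix protein decorin, differed by -0.02 with each. Reln differed by 0.22 with KD3010 and 0.13 with GW1516, and Acta2 by -0.27 with KD3010 and 0.14 with GW1516. Of 8 Kupffer cell markers with a probe, 6 were detected on no array and 0 on all 6. The part of these cells in the lower levels of the 3 genes was not tested, and in bulk RNA fewer cells of a type and less RNA per cell cannot be told apart.

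Across 15 alternative settings, 0 of the 9 changes of the 3 genes turned in sign, but several settings could not alter these changes. With 1 probe per gene, the other filters on dim probes and the mean of a gene's probes left them as they were. The trended variance, the replicate block and the arrays of both groups only did so too. Leaving out an array of the group outside a comparison could not alter it either. The change with KD3010 against DMSO ranged from -1.61 to -1.19 for Guca2a, from -1.26 to -0.76 for Guca2b and from -1.32 to -0.77 for Scnn1a. The change with GW1516 against DMSO ranged from -0.23 to -0.0038 for Guca2a, from -0.51 to -0.31 for Guca2b and from -0.47 to -0.26 for Scnn1a, and 0 of the 15 settings called it for any of them.

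**Figure D5:**
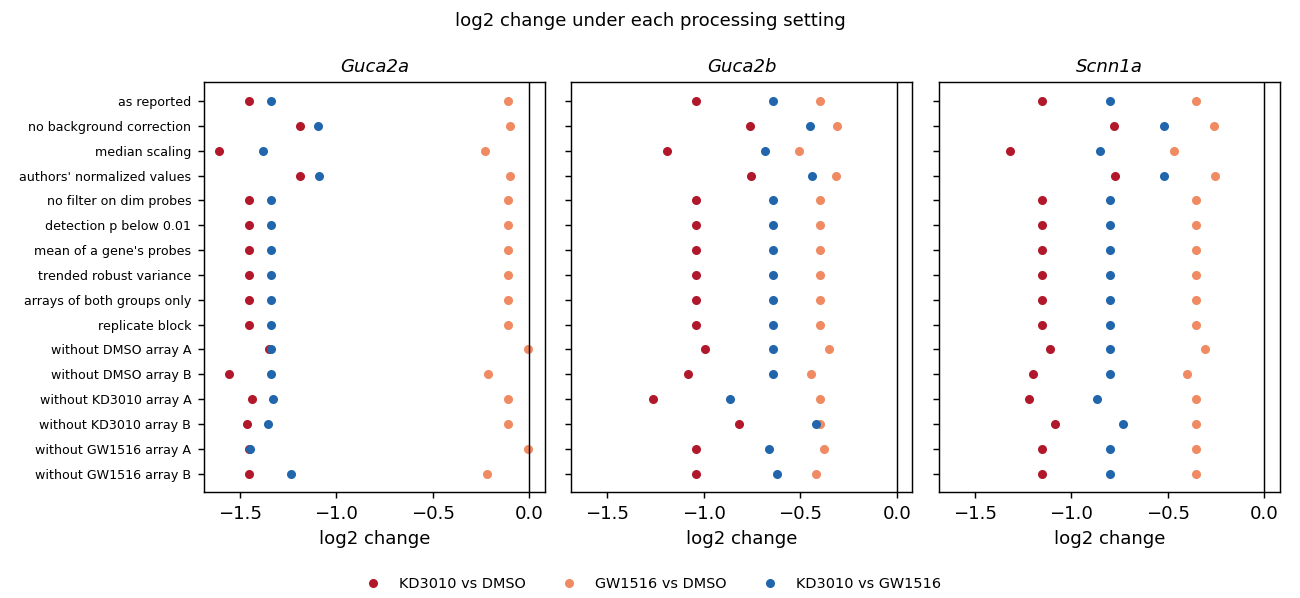
Log2 change of each gene in the 3 comparisons (colours) under each processing setting (rows). All points lie below 0. Those of Guca2a for GW1516 against DMSO come closest to 0, at -0.0038, when GW1516 array A is left out, and the values nearest 0 for KD3010 against DMSO come without background correction and from the authors' normalized values.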

How the data were processed

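Guca2a, Guca2b and Scnn1a, the gene lists and the tests were chosen with earlier results of these data known. The deposited bead intensity per probe is the unnormalized mean over beads, per the file headers, and GenomeStudio, with no version given, is named in the submitters' processing notes. Each has a deposited detection p-value, per the file headers. The authors also deposited normalized intensities on a linear scale (column medians 257.8 to 257.9, no centring), whose method is not given here. They equal the series matrix values (largest difference 0). Column names give the group and a letter, A or B, which names an array, and no pairing by letter is stated. The other 31 columns of these tables, mostly bead counts and bead errors, were not used.

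Intensities were background-corrected with normexp fitted on detection p-values (offset 16) and quantile-normalized with limma 3.58.1 under R 4.3.3, and log2 was taken afterwards. The filter kept 10530 probes whose detection p was under 0.05 on each array of some group, and the brightest stood for its gene, which left 8058 features, 7457 of them named. Symbols came from the platform annotation, updated through Entrez identifiers (23962 probes) or accessions (9), with 7 kept and 1719 probes unnamed here. One linear model covered the 6 arrays (lmFit, eBayes, 3 residual and 6.54 prior degrees of freedom), with Benjamini-Hochberg adjustment over all features. On simulated data for KD3010 against DMSO (8058 features, 200 changed, 5 simulations) it called 99.2% of 4-fold and 73.4% of 2-fold changes, with a mean of 9.6 false calls. In the data 10 features were called, and with fewer changed features the adjusted cutoff is stricter, so recovery may be lower than in the simulation. No slide or scan date is stated, so no batch was tested. The number of arrays limits the precision.

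Genes named were the 3 genes, a set of their partners and regulators fixed by name, any list gene called, the largest rise and fall of each list against DMSO, and the 5 genes with the highest r to Guca2a and to Scnn1a. Rictor, Sox9, Lyve1, Vim, Dcn, Frg2f1, Foxj3 and Hivep3 were named after their values were seen. The other cholangiocyte, endothelial and stellate cell markers given with a change were added after that too.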

Additional observations from a re-analysis of the deposited data

How the results depend on the processing

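Counts of called features depended on the settings more than the values of the 3 genes did, though several settings could not alter those values. The cause of these shifts in counts was not tested. For KD3010 against DMSO the count was 10, and it was 34 without background correction, 32 with the authors' normalized values, 6 with no filter on dim probes, 23 with detection p below 0.01, 49 with a trended robust variance, 1 with the arrays of both groups only, and 0 to 2 with an array left out of the fit. For GW1516 against DMSO it was 7, and 2 with median scaling or with no filter, 12 with the authors' values, 17 with the trended variance, 3 with the replicate block, and 0 to 5 with an array left out. Between the agonists it was 0, and 38 without background correction, 39 with the authors' values, 7 with detection p below 0.01 and 57 with the trended variance. Without an array, the single array of its group is assumed to vary like the other groups.

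Without background correction the log2 change with KD3010 against DMSO was -1.19 for Guca2a, -0.760 for Guca2b and -0.776 for Scnn1a, and against GW1516 it was -1.09, -0.451 and -0.517 for the same genes. With the authors' normalized values it was -1.19, -0.756 and -0.773 against DMSO, and -1.09, -0.440 and -0.517 against GW1516. Median scaling gave -1.61 for Guca2a and -1.32 for Scnn1a, with the median over features itself at -0.12. With an array left out, the change against DMSO ran from -1.26 to -0.816 for Guca2b and from -1.22 to -1.09 for Scnn1a, and against GW1516 from -0.864 to -0.419 for Guca2b and from -0.865 to -0.732 for Scnn1a.

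With the replicate block, KD3010 against DMSO gave 9 called features. The block could not alter the changes of the 3 genes, since every group held an array of each letter. The deviations of arrays with the same letter correlated between -0.018 and 0.016 over features, so no common deviation by letter was seen. Whether arrays with the same letter share a culture or a slide is not stated.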
